A study of Homo sapiens with 8 samples.

Results

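Cholesterol synthesis, uptake and export genes were followed in Huh7.5.1 and Hep3b cells, both human liver cancer lines. The 33 genes were taken by symbol in pathway order, from acetyl-CoA to cholesterol and then regulators, uptake and export, and a probe set counted when the platform annotation gave it exactly 1 of these symbols. By this rule 31 of the 33 genes were found, with 86 of the 49395 probe sets of the array. The probe sets of CYP51A1 carried a further symbol and FDFT1 was not analysed here. A total of 30 of the 31 genes reached the floor in at least 1 group and were tested, and ABCG1 lay below it in every group. The floor is the 50th percentile of all signals, log2 6.11.

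The 3 groups used were Huh7.5.1 cells kept for 48 h with 10 μM CU27, Huh7.5.1 cells kept for 48 h with DMSO, and Hep3b cells kept for 48 h with DMSO, each with 2 biological replicates on 1 array per replicate. The labels give CU27 as a code name with no structure, and DMSO, a common solvent for such agents, as the control. All groups are established tumour lines grown in medium with 10% fetal bovine serum, which itself carries lipoprotein cholesterol. The labels also list Hep3b cells with CU27. At all 49395 probe sets those 2 columns were linear functions of the Hep3b DMSO columns to within 1e-06, and they were left out. Such a relation does not show which Hep3b columns were measured, so the Hep3b DMSO values rest on their labels. Those DMSO arrays also enter the estimate of spread used for the CU27 tests. The labels call the replicates biological without saying how cultures were separated. The p-values therefore rest on the spread between these arrays, pooled over the 3 groups.

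Cells make cholesterol from acetyl-CoA through mevalonate, isoprenoids, squalene and lanosterol. When sterol in the endoplasmic reticulum runs low, the escort protein SCAP carries the transcription factor SREBP2, the product of SREBF2, to the Golgi, where it is cut and released to the nucleus, while the INSIG proteins hold SCAP back when sterol is plentiful. When sterol is in excess, oxysterols activate the liver X receptors, which raise export genes such as ABCA1 and ABCG1 and the ubiquitin ligase MYLIP. The liver is a main site of both arms.

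Most of these genes rose with CU27 in Huh7.5.1. Of the 30 tested, 17 rose, 2 fell and 11 were not past the test (limma, adjusted p threshold of 0.05 over all genes), where 12.6% of the 11383 genes tested rose, 12.1% fell and 24.7% did either. HSD17B7 lay below the floor in both Huh7.5.1 groups, as did NPC1L1 at the probe set used, and without them 16 of 28 rose and 2 fell. Among the 17, 7 were at least 2-fold higher with CU27. The median log2 change was 0.64 over the 30 genes and 0.015 over all genes tested, both given as a description. By role, 4 of 8 tested genes of early synthesis rose and 0 fell. In sterol synthesis 7 of 10 rose (6 of 9 without HSD17B7) and 2 fell. Of the regulators 3 of 5 rose, of the uptake and transfer genes 3 of 4 rose, and of export and esterification 0 of 3 passed the test. Both CU27 arrays lay above both DMSO arrays for 20 genes and below them for 5, where 32.9% and 31% of all genes did so and 63.8% did either. The number of risen genes was between 12 and 17 when single arrays were left out. Over all genes, 1429 rose in the full set of arrays. That count was 676 with CU27 replicate 2 left out, 792 with DMSO replicate 1 left out and 453 with DMSO replicate 2 left out.

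**Figure D1:**
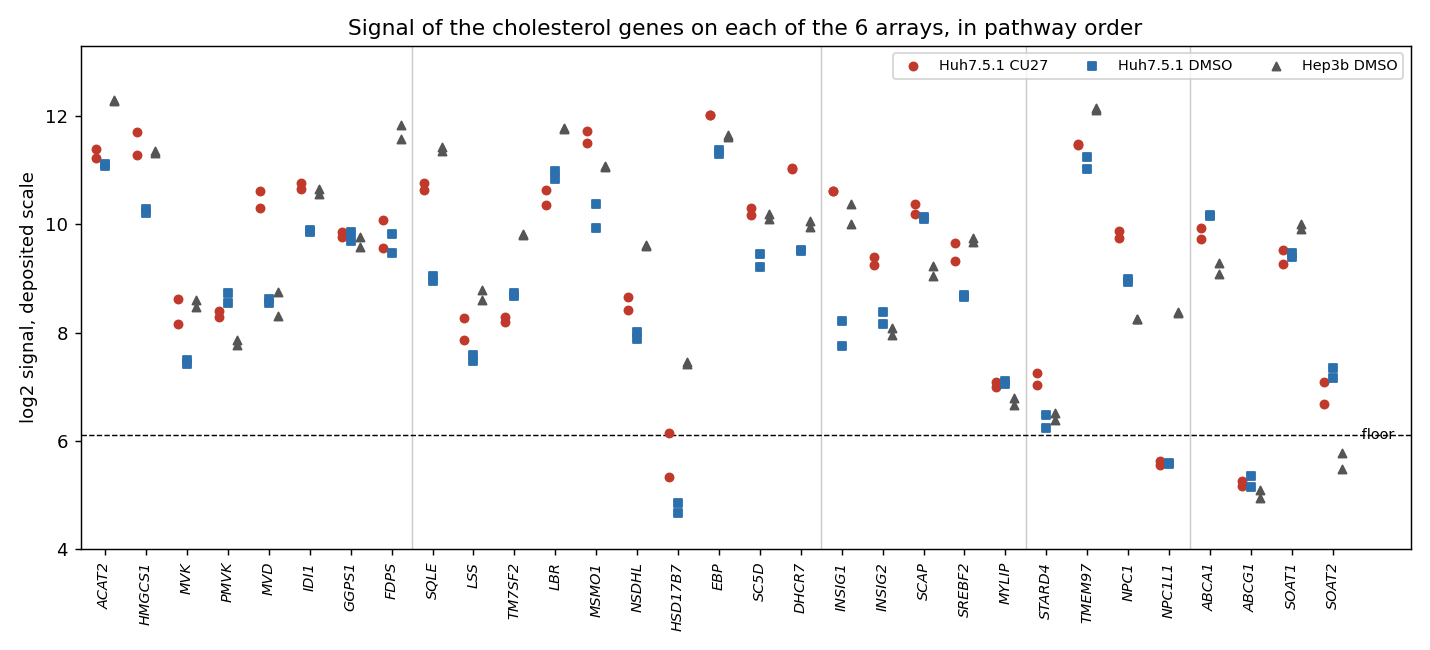
Deposited log2 signal of the 31 cholesterol genes on each of the 6 arrays, in pathway order, with 1 point per array (red circles Huh7.5.1 CU27, blue squares Huh7.5.1 DMSO, grey triangles Hep3b DMSO). Grey vertical lines part the 5 roles, the dashed line is the floor at 6.11, and for 20 genes both red points lie above both blue points.

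All 8 hepatocyte and fetal liver markers examined reached the floor in at least 1 group, HP in Huh7.5.1 DMSO alone, and their mean log2 signal was 11.74 and 11.33 with CU27, 12.21 and 12.29 in DMSO-treated Huh7.5.1, and 11.36 and 11.41 in DMSO-treated Hep3b. With CU27, 5 of the 8 fell, where 12.1% of all genes tested did. Of the leukocyte markers 4 of 5 lay below the floor in every group, among them PTPRC, while CD68, a protein of lysosome membranes, rose by 2.25 ± 0.20 (SE, 2 arrays in each group, limma adjusted p = 0.000394). Of the endothelial and the fibroblast markers, 3 of 4 each lay below it in every group. Whether these markers bear on the cholesterol genes was not tested.

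Early synthesis genes rose at 4 steps of the mevalonate pathway, and the other tested ones were not past the test. MVD, which makes isopentenyl diphosphate, had log2 signals of 10.31 and 10.62 with CU27, against 8.63 and 8.54 in DMSO. It rose by 1.88 ± 0.18 (SE, 2 arrays in each group, limma adjusted p = 0.000614), or 3.68-fold, the 55th largest rise among the 11383 genes. HMGCS1, the synthase of HMG-CoA, had signals of 11.29 and 11.70 with CU27, against 10.21 and 10.28 in DMSO. It rose by 1.25 ± 0.14 (limma adjusted p = 0.000909), and the 2 groups lay more than a log2 unit apart. MVK, the mevalonate kinase, had signals of 8.16 and 8.63 with CU27, against 7.49 and 7.42 in DMSO, and rose by 0.94 ± 0.18 (limma adjusted p = 0.00683). IDI1, the isomerase of isopentenyl diphosphate, had signals of 10.77 and 10.65 with CU27, against 9.86 and 9.89 in DMSO, and rose by 0.83 ± 0.12 (limma adjusted p = 0.0021). In both genes the arrays of the 2 groups stood clear of each other. Without DMSO replicate 2, MVK was at 0.91 with an adjusted p of 0.0574.

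The other early enzymes did not pass the test, which does not show that they were unchanged. ACAT2, the cytosolic thiolase that joins acetyl-CoA units, had a value of 0.21 ± 0.10 (limma adjusted p = 0.154), with both CU27 arrays above both DMSO arrays. PMVK, which phosphorylates mevalonate phosphate, had a value of -0.29 ± 0.15 (limma adjusted p = 0.187), and its signals were 8.40 and 8.29 with CU27, against 8.73 and 8.54 in DMSO. PMVK thus lay lower with CU27 on both arrays, between MVK and MVD in the pathway, which both rose. FDPS, the farnesyl diphosphate synthase, had signals of 9.57 and 10.08 with CU27, against 9.47 and 9.82 in DMSO, which overlap, and a value of 0.18 ± 0.19. GGPS1, which leads to geranylgeranyl diphosphate and away from sterols, had a value of 0.04 ± 0.13 at the probe set used. Its 2 other probe sets fell by 0.63 and 0.81 when every probe set was tested on its own (limma adjusted p = 0.0344 and 0.0114), so the direction of GGPS1 depends on the probe set.

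Most sterol synthesis genes rose, and both genes for the sterol reductase step after CYP51A1 were lower. SQLE, the squalene epoxidase and a controlling step of the pathway, had log2 signals of 10.64 and 10.76 with CU27, against 8.95 and 9.05 in DMSO. It rose by 1.70 ± 0.12 (limma adjusted p = 0.000307), or 3.25-fold. DHCR7, the reductase of the last step of 1 branch of the pathway, had signals of 11.04 and 11.03 with CU27, against 9.51 and 9.52 in DMSO. The replicates of DHCR7 differed by less than the distance between groups, and it rose by 1.52 ± 0.12 (limma adjusted p = 0.000307). MSMO1, the methylsterol monooxygenase, had signals of 11.73 and 11.51 with CU27, against 10.37 and 9.93 in DMSO, a rise of 1.47 ± 0.15 (limma adjusted p = 0.000722). Every CU27 array of these 3 genes lay more than a log2 unit above every DMSO array. SC5D, a sterol desaturase, had signals of 10.18 and 10.31 with CU27, against 9.21 and 9.46 in DMSO, and rose by 0.91 ± 0.14 (limma adjusted p = 0.0027). EBP, a sterol isomerase, had signals of 12.02 and 12.03 with CU27, against 11.38 and 11.31 in DMSO, and rose by 0.68 ± 0.09 (limma adjusted p = 0.00167).

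NSDHL, a dehydrogenase that removes a sterol carboxyl group, had signals of 8.42 and 8.66 with CU27, against 7.88 and 8.01 in DMSO, and rose by 0.59 ± 0.15 (limma adjusted p = 0.0191). Its adjusted p was 0.0859 without CU27 replicate 2, 0.110 without DMSO replicate 1 and 0.0771 without DMSO replicate 2. HSD17B7, the keto reductase that follows it, had signals of 5.33 and 6.15 with CU27, against 4.86 and 4.67 in DMSO. Both group means were below the floor in Huh7.5.1, so HSD17B7 entered the test only through its higher level in Hep3b and no fold is given for its call (limma adjusted p = 0.0236). That call was lost without CU27 replicate 2, DMSO replicate 1 or DMSO replicate 2, with adjusted p of 0.104, 0.066 and 0.135. LSS, which closes the rings of lanosterol, had signals of 7.87 and 8.28 with CU27, against 7.59 and 7.48 in DMSO, and a value of 0.54 ± 0.18 just beyond the threshold (limma adjusted p = 0.0544). LSS passed in 5 of 15 alternatives, among them without CU27 replicate 1 (adjusted p = 0.0205) and with the replicate number as a block (adjusted p = 0.04995).

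TM7SF2 and LBR both encode sterol reductases that act at the same step, and LBR is also an inner nuclear membrane protein. TM7SF2 had signals of 8.29 and 8.20 with CU27, against 8.68 and 8.73 in DMSO, and fell by 0.46 ± 0.13 (limma adjusted p = 0.0341). LBR had signals of 10.64 and 10.36 with CU27, against 10.99 and 10.85 in DMSO, and fell by 0.41 ± 0.12 (limma adjusted p = 0.0374). Both genes were lower on every CU27 array, and both calls lay close to the threshold. With single arrays left out the adjusted p of TM7SF2 was 0.103 without CU27 replicate 2, 0.114 without DMSO replicate 1, 0.175 without DMSO replicate 2, and 0.0579 and 0.0585 without the Hep3b arrays. That of LBR was 0.155, 0.184, 0.100, 0.0726 and 0.0727 in the same order. The 5 probe sets of TM7SF2 ran from -0.46 to -0.02 and the 2 of LBR were at -0.68 and -0.41. In both genes only the probe set used passed when probe sets were tested on their own.

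**Figure D2:**
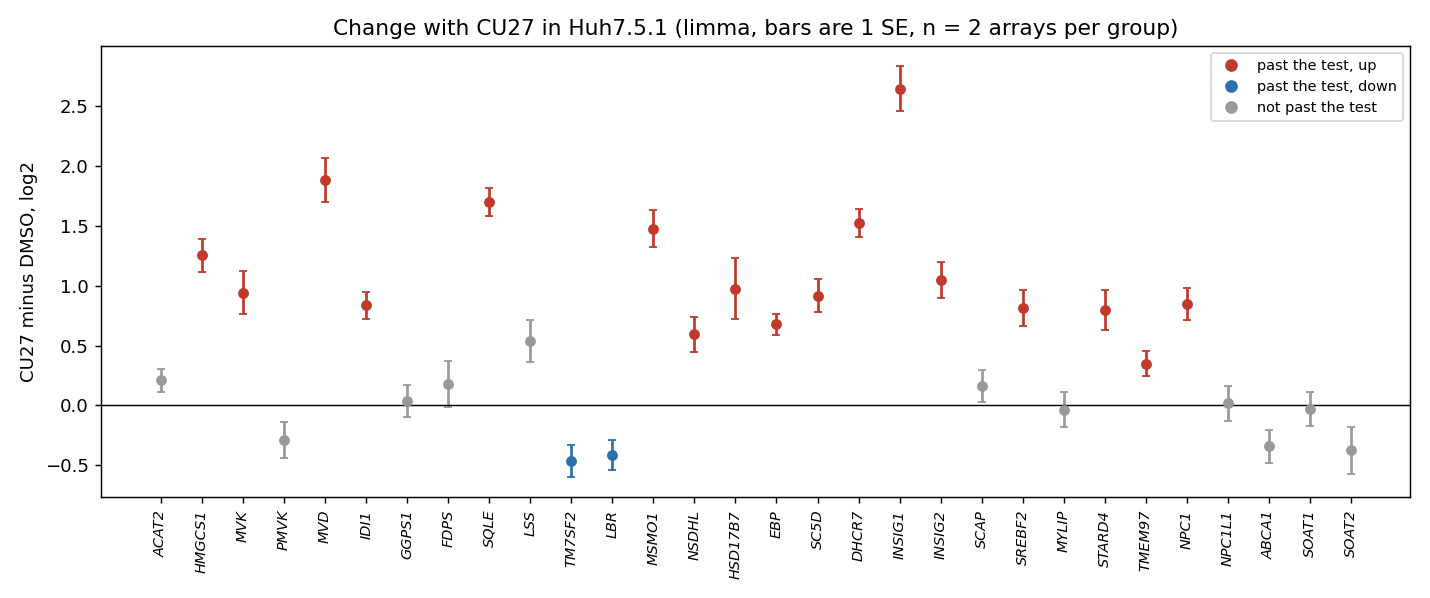
Log2 change with CU27 against DMSO in Huh7.5.1 for the 30 tested cholesterol genes in pathway order, with bars of 1 SE from limma. Red points rose, blue points fell and grey points were not past the test. INSIG1 stands highest at 2.64, and the blue points are TM7SF2 at -0.46 and LBR at -0.41.

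Among the regulators, the 2 INSIG genes and SREBF2 rose while SCAP and MYLIP did not pass the test. INSIG1, which retains the SCAP and SREBP complex in the endoplasmic reticulum and is itself an SREBP target, had log2 signals of 10.63 and 10.62 with CU27, against 8.22 and 7.75 in DMSO. INSIG1 rose by 2.64 ± 0.19 (limma adjusted p = 0.000307), or 6.23-fold, the 16th largest rise of the 11383 genes. Its other probe sets were at 2.89 and 2.35. INSIG2, the second retention protein, had signals of 9.39 and 9.24 with CU27, against 8.39 and 8.16 in DMSO, and rose by 1.05 ± 0.15 (limma adjusted p = 0.00235). SREBF2 had signals of 9.33 and 9.66 with CU27, against 8.66 and 8.70 in DMSO, and rose by 0.81 ± 0.15 (limma adjusted p = 0.00616). For INSIG1, INSIG2 and SREBF2 all 3 probe sets each passed the test when probe sets were tested on their own. SCAP had signals of 10.19 and 10.39 with CU27, against 10.10 and 10.15 in DMSO, and a value of 0.16 ± 0.13 (limma adjusted p = 0.423), and MYLIP, the ligase that marks lipoprotein receptors for degradation, had signals of 7.10 and 6.99 with CU27, against 7.06 and 7.10 in DMSO, and a value of -0.03 ± 0.15.

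Promoter sequence is shown for SREBF2, the 1 gene with a sterol element match, and for INSIG1, MVD and MSMO1, a regulator, an early enzyme and a sterol enzyme that rose and have 1 listed start each. Of the 33 genes, 28 matched windows in RefSeq (GRCh38.p14), with 36 windows of 300 bases from 250 before to 50 after a start, some of which overlap for genes with several starts. Both strands were searched for the sterol regulatory element core TCACNCCAC, where N is any base, and for the CCAAT box bound by NF-Y, a common partner of SREBP, and these motifs do not overlap. The sterol element core was found in 1 of the 36 windows, that of SREBF2, and in 1.13% of all 35116 windows. The CCAAT box was found in 16 of 22 windows of genes that rose, 6 of 11 of genes not past the test, 1 of 2 of genes that fell, and 34.6% of all windows. A match describes these letters only, and other forms of the element were not searched.

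The 250 bases before the start are printed 5′ to 3′ on the gene's strand, at chr22:41832855-41833104 on the plus strand for SREBF2, chr7:155297628-155297877 on the plus strand for INSIG1, chr16:88663092-88663341 on the minus strand for MVD and chr4:165327419-165327668 on the plus strand for MSMO1. Capitals mark the sterol element core and CCAAT boxes, which read as ATTGG where they lie on the other strand.
SREBF2: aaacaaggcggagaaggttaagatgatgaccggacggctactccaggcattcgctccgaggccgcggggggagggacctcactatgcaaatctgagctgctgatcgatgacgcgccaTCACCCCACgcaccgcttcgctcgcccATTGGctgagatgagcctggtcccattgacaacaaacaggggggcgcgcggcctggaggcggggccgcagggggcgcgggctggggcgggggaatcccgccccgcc
INSIG1: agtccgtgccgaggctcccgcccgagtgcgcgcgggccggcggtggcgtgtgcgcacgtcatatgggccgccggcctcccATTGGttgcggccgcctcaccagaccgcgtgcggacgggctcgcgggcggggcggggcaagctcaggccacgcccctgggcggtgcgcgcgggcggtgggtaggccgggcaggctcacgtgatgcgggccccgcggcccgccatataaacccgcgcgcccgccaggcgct
MVD: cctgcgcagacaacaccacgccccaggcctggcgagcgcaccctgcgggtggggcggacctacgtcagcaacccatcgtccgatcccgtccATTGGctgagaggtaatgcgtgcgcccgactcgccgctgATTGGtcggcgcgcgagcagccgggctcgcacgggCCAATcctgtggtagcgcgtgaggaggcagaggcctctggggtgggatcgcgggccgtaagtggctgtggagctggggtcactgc
MSMO1: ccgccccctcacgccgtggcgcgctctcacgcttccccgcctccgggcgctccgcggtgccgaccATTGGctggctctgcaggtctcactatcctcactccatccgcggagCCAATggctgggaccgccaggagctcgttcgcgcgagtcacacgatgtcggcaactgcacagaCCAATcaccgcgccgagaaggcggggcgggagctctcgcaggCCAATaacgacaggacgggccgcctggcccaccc
In SREBF2 the element starts 133 bases before the start and a CCAAT box 106 bases before it. INSIG1 has 1 box, MVD 3 and MSMO1 4.

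Uptake and transfer genes rose in part. NPC1, which moves cholesterol out of late endosomes and lysosomes, had log2 signals of 9.74 and 9.88 with CU27, against 8.99 and 8.94 in DMSO, and rose by 0.85 ± 0.13 (limma adjusted p = 0.00325). Its other probe set was at 0.49 (limma adjusted p = 0.0642). STARD4, a soluble sterol carrier and a known SREBP2 target, had signals of 7.26 and 7.04 with CU27, against 6.47 and 6.24 in DMSO, and rose by 0.80 ± 0.17 (limma adjusted p = 0.0105). STARD4 was at 0.68 without DMSO replicate 2 (adjusted p = 0.0943), and all 4 of its probe sets above the floor passed on their own. TMEM97, the sigma-2 receptor that binds NPC1, had signals of 11.48 and 11.49 with CU27, against 11.25 and 11.02 in DMSO, and rose by 0.35 ± 0.10 (limma adjusted p = 0.0384). The call of TMEM97 was lost in 10 of 15 alternatives, with adjusted p of 0.0732 and 0.111 without CU27 replicates 1 and 2, 0.256 without DMSO replicate 2, and 0.0722 and 0.0723 without Hep3b replicates 2 and 3. NPC1L1, the sterol transporter that ezetimibe blocks, lay below the floor on all Huh7.5.1 arrays at the probe set used, with signals of 5.56 and 5.63 with CU27, against 5.58 and 5.59 in DMSO.

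No tested gene of export and esterification passed the test with CU27. ABCA1, the pump that loads cholesterol onto apolipoprotein A-I, had log2 signals of 9.93 and 9.73 with CU27, against 10.16 and 10.18 in DMSO, and a value of -0.34 ± 0.14 (limma adjusted p = 0.104). Both ABCA1 values with CU27 lay below both DMSO values. SOAT2, the cholesterol esterifying enzyme typical of hepatocytes, had signals of 7.08 and 6.67 with CU27, against 7.16 and 7.34 in DMSO, and a value of -0.37 ± 0.19 (limma adjusted p = 0.197). SOAT1, the widely expressed esterifying enzyme, had signals of 9.54 and 9.27 with CU27, against 9.39 and 9.47 in DMSO, which overlap, and a value of -0.03 ± 0.14. ABCG1, the exporter to high density lipoprotein, had signals of 5.25 and 5.17 with CU27, 5.14 and 5.35 in DMSO-treated Huh7.5.1, and 4.95 and 5.10 in DMSO-treated Hep3b, all below the floor. The tests that missed the threshold do not show that these genes were the same in both groups.

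**Figure D3:**
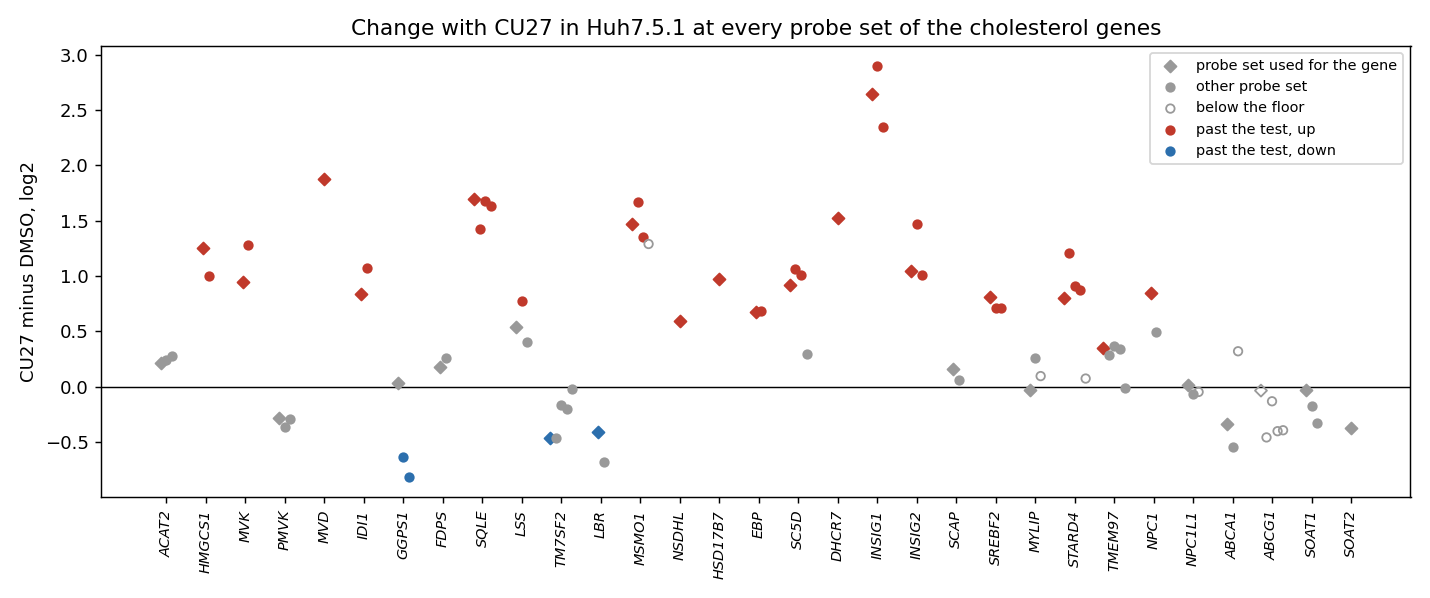
Difference of mean log2 signal between CU27 and DMSO in Huh7.5.1 at all 86 probe sets of the 31 genes, with diamonds for the probe set that stands for the gene and open symbols below the floor. Red and blue mark the 38 probe sets that rose and the 4 that fell in the test of all probe sets. GGPS1 is the gene whose probe set in use lies near 0 while its 2 others are blue.

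Among the genes that rose with CU27, the probe sets of a gene mostly moved together. In a fit of all 27836 probe sets that reached the floor, 38 of the 76 tested probe sets of these genes rose and 4 fell, where 10.4% and 11.3% of all tested probe sets did so. Of the 17 genes that rose, 13 had more than 1 tested probe set, and in 10 of them every tested probe set rose. The exceptions among these were SC5D with 3 of 4, TMEM97 with 1 of 5 and NPC1 with 1 of 2. Outside the 17 genes, LSS had 1 of 3 tested probe sets up. TM7SF2 had 1 of 5, LBR 1 of 2 and GGPS1 2 of 3 down. Probe sets of a gene share its transcripts and are not replicates.

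Genes of the same pathways outside the 33 moved unevenly with CU27. Among 8 measured genes of SREBP processing, sterol-regulated degradation and oxysterol receptors, 0 rose and 3 fell, where 12.6% of all genes rose and 12.1% fell. RNF145, a sterol-responsive ubiquitin ligase and liver X receptor target, had log2 signals of 8.77 and 9.04 with CU27, against 9.88 and 10.25 in DMSO, and fell by 1.16 ± 0.19 (limma adjusted p = 0.00384). MBTPS2, the protease that makes the second cut of SREBP, fell by 0.57 ± 0.15, and ERLIN1, which takes part in the degradation of sterol-regulated proteins, by 0.49 ± 0.13 (limma adjusted p = 0.0238 and 0.0275). Among 13 tested genes of sterol transport and storage, 6 rose and 0 fell, against the same shares. NPC2, which hands cholesterol to NPC1 in the lysosome, had signals of 11.65 and 11.80 with CU27, against 10.60 and 10.53 in DMSO, and rose by 1.16 ± 0.12 (limma adjusted p = 0.000722). GRAMD1A, which carries sterol from the plasma membrane to the endoplasmic reticulum, rose by 1.22 ± 0.19 and the oxysterol-binding OSBPL2 by 0.83 ± 0.16 (limma adjusted p = 0.003 and 0.008). Of 10 genes of the isoprenoid branches, RABGGTB, a subunit of the enzyme that geranylgeranylates RAB proteins, was the 1 that rose, by 0.59 ± 0.13 (limma adjusted p = 0.011), and 0 fell, which is close to the share of all genes that rose. The medians of the 3 lists were -0.31, 0.11 and -0.10, against 0.015 over all genes.

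Levels of the pathway in DMSO also differed between the lines, and most of its genes were lower in Huh7.5.1 than in Hep3b. This comparison rests on the Hep3b DMSO columns as labelled. Those columns were exactly equal at 1086 probe sets, of which 0 belonged to these genes. The array medians were 6.27 and 6.23 in DMSO-treated Huh7.5.1 and 5.85 and 5.82 in DMSO-treated Hep3b, a shift of 0.42 between lines, and the scaling that the authors used between arrays is not stated. A line difference was therefore called only when it passed with the same sign on the deposited scale and after subtraction of each array's median. By that rule 20 of the 30 genes were lower in Huh7.5.1 and 4 were higher, where 22.9% and 23.3% of all tested genes were. HSD17B7, NPC1L1 and SOAT2 passed the floor through the line in which they were higher, and without them 18 of 27 were lower and 3 higher. On the deposited scale 20 were lower and 5 higher, where 22.9% and 41% of all genes were, and after subtraction 21 and 4, where 39.6% and 23.3% were. The median difference over the 30 genes was -0.83 on the deposited scale, where that of all genes was 0.22. For the ACTB transcript, the 3′ control signal exceeded the 5′ one by 0.94 and 1.06 in DMSO-treated Huh7.5.1 and by 2.28 and 1.60 in DMSO-treated Hep3b, a sign of RNA quality, and its part in the line differences was not tested.

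Lower genes were found in every role, but only in sterol synthesis were all tested genes lower. All 10 tested genes of sterol synthesis, or 9 of 9 without HSD17B7, and 5 of 8 of early synthesis were lower in Huh7.5.1. SQLE had log2 signals of 8.95 and 9.05 in Huh7.5.1 DMSO, against 11.42 and 11.36 in Hep3b DMSO, a difference of -2.81 ± 0.12 after median subtraction (limma adjusted p = 9.1e-08). FDPS had 9.47 and 9.82 in Huh7.5.1 DMSO, against 11.58 and 11.83 in Hep3b DMSO. Its difference was -2.06 on the deposited scale and -2.48 ± 0.20 after median subtraction. INSIG1 had 8.22 and 7.75 in Huh7.5.1 DMSO, against 10.37 and 10.00 in Hep3b DMSO. Its difference was -2.20 on the deposited scale and -2.62 ± 0.18 after median subtraction. The regulators SREBF2 and INSIG1 were thus both lower in Huh7.5.1, and SREBF2 differed by -1.44 ± 0.15 after median subtraction (limma adjusted p = 2.71e-05). On the deposited scale the 3 probe sets of SREBF2 differed by -1.02, -0.82 and -0.097, and the last of these missed the threshold (limma adjusted p = 0.677). ACAT2 differed by -1.61 ± 0.10, NSDHL by -2.08 ± 0.15, LSS by -1.58 ± 0.18 and TM7SF2 by -1.53 ± 0.14, all after median subtraction. A further probe set of LSS was at 0.44 on the deposited scale, opposite in sign but short of the threshold (limma adjusted p = 0.0761). On that scale 1 of 5 probe sets of TMEM97 was at 0.11, and the 5 of TM7SF2 ran from -3.38 to -0.54. MVK was at -1.08 at the probe set used and at -0.16 at its other one (limma adjusted p = 0.539). The line difference of MVK thus depends on the probe set.

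At the probe sets used, HSD17B7 and NPC1L1 lay below the floor in Huh7.5.1 DMSO and entered the test through Hep3b. HSD17B7 had 4.86 and 4.67 in Huh7.5.1 DMSO, against 7.43 and 7.46 in Hep3b DMSO, at least 2.53-fold lower in Huh7.5.1. NPC1L1 had 5.58 and 5.59 in Huh7.5.1 DMSO, against 8.37 and 8.38 in Hep3b DMSO, at least 4.81-fold lower by the probe set used. Of its other probe sets, 1 was at 6.04 and 6.30 in Huh7.5.1 DMSO, against 6.27 and 6.65 in Hep3b DMSO, a difference of -0.29 that was not past the test, and the other differed by 0.38, so the line difference of NPC1L1 depends on the probe set. These bounds set the lower group at the floor on the deposited scale. EBP was the gene nearest the threshold among the lower ones, at -0.30 ± 0.09 on the deposited scale (limma adjusted p = 0.0159), and it missed the threshold with DMSO replicate 2 left out (adjusted p = 0.0966) or Hep3b replicate 3 left out (adjusted p = 0.080). SOAT1, at -0.53 ± 0.14 on that scale, was not past the test without DMSO replicate 1 (adjusted p = 0.0576) or Hep3b replicate 2 (adjusted p = 0.0633).

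The 4 genes higher in Huh7.5.1 were PMVK, SCAP, ABCA1 and SOAT2. SOAT2 had 7.16 and 7.34 in Huh7.5.1 DMSO, against 5.78 and 5.48 in Hep3b DMSO, at least 2.21-fold higher on the deposited scale. This bound sets Hep3b at the floor and does not carry over to the values after median subtraction. There the log2 difference was 1.20 ± 0.20, against 1.62 ± 0.19 as deposited. ABCA1 had 10.16 and 10.18 in Huh7.5.1 DMSO, against 9.29 and 9.09 in Hep3b DMSO, a difference of 0.56 ± 0.14 after median subtraction (limma adjusted p = 0.0055). The other tested probe set of ABCA1 was at 0.48 on the deposited scale and missed the threshold (limma adjusted p = 0.0891). SCAP, the escort of SREBP, differed by 0.56 ± 0.14 and PMVK by 0.40 ± 0.15 after median subtraction. Another probe set of PMVK was at -0.034 on the deposited scale, so the line difference of PMVK depends on the probe set. NPC1 was at 0.71 ± 0.13 on the deposited scale and at 0.30 ± 0.14 after subtraction (limma adjusted p = 0.0854), so it was not called. The other probe set of NPC1 was at 1.69 on the deposited scale (limma adjusted p = 4.42e-05), so the size of its line difference depends on the probe set. MVD, GGPS1, INSIG2, MYLIP and STARD4 were not called either. For STARD4 the probe set used was at -0.10 on the deposited scale. Its other tested probe sets were at -0.79, -0.89 and -0.95 (limma adjusted p = 0.0097, 0.0144 and 0.0016), so the line difference of STARD4 depends on the probe set.

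**Figure D4:**
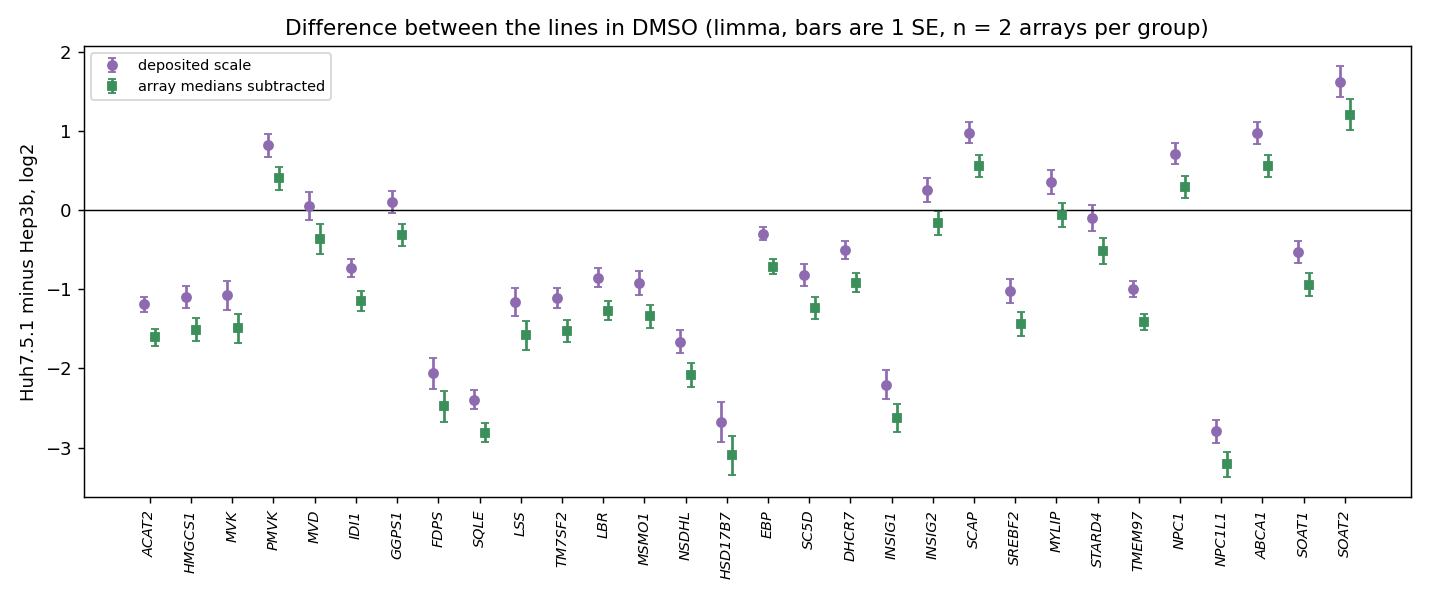
Log2 difference between Huh7.5.1 and Hep3b in DMSO for the 30 tested cholesterol genes, on the deposited scale (purple circles) and after subtraction of each array's median (green squares), with bars of 1 SE from limma. All 10 genes of sterol synthesis, SQLE to DHCR7, lie below 0 on both scales, and PMVK, SCAP, ABCA1 and SOAT2 lie above it on both.

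The comparisons with CU27 and between lines share the Huh7.5.1 DMSO arrays, so an error in those arrays moves both, in opposite directions, and their values are set side by side without a test of their relation. Of the 17 genes that rose with CU27, 13 were lower in Huh7.5.1 DMSO than in Hep3b DMSO (12 of 16 without HSD17B7), where 29.8% of all genes that rose and 22.9% of all tested genes were. Nothing is read from this count, since the shared arrays by themselves favour it. On the deposited scale, where array medians were lower in Hep3b, INSIG1 stood at 10.63 and 10.62 with CU27. It stood at 8.22 and 7.75 in DMSO-treated Huh7.5.1 and at 10.37 and 10.00 in Hep3b DMSO. After median subtraction its change with CU27 was 2.64 and its line difference -2.62. SQLE stood at 10.64 and 10.76 with CU27 and remained below the 11.42 and 11.36 of Hep3b DMSO on the deposited scale. MVD and INSIG2 rose with CU27 and were not called different between the lines. TM7SF2 and LBR, the genes that fell with CU27, were also among those lower in Huh7.5.1 than in Hep3b.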

How the data were processed

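RNA of Huh7.5.1 and Hep3b cells was amplified and biotin-labelled from the 3′ end, per the labels' protocols, for 1 Affymetrix array per sample. The values are the signals deposited by the authors, taken as log2 from their range. The submitters' processing notes name MAS5 without its version, and the scaling of the arrays is not stated. Of 8 columns, 6 were used. Array controls (102 probe sets) were left out. Probe sets with 1 symbol (44988, of which 44961 matched RefSeq by Entrez identifier, with 0 symbols changed) were kept, 1832 had several symbols and 2473 none. For each of 18132 genes the brightest probe set on average was taken. For 8 members the probe set taken ends in _x_at, a kind that can also bind related transcripts (ACAT2, PMVK, LSS, HSD17B7, EBP, INSIG2, SCAP and STARD4).

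A gene was tested when a group mean reached the 50th percentile of all values, which 11383 genes did. All 6 arrays were fitted together with limma 3.58.1 in R 4.3.3 (lmFit, contrasts, eBayes with intensity trend, 3 residual and 5.87 prior degrees of freedom), two-sided, with Benjamini-Hochberg adjustment over all genes tested and a threshold of 0.05. Errors are limma standard errors with n = 2 arrays per group, whose spread is pooled over the 6 arrays and shrunk by eBayes. Arrays carry no read depth, so their number limits the precision. With 2 arrays against 2, the smallest p of an exact permutation test is 0.333, so none was used. The fit was tested on simulated data with 200 changed genes. It recovered 66% of 2-fold and 93% of 4-fold changes and called 0.0626% of unchanged genes. A missed test thus does not show that a gene was unchanged. The alternatives were other scalings, floors, probe set rules, variance models, sample subsets, a replicate block and each array left out. Counts without members below the floor in the groups compared were added after seeing the data.

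Every member gene was accounted for. Full values were given for members past the test with CU27 (up to 20) or between lines (up to 10), and for SREBF2, SCAP, INSIG2, MYLIP, NPC1L1, ABCA1, ABCG1, SOAT1 and SOAT2 whatever their result, and up to 3 genes by smallest p for each of 3 further lists of 38 genes in all. Members and lists were chosen with earlier results of these data known. Exactly equal values in both Hep3b DMSO columns occurred at 1086 probe sets, of which 0 belonged to these genes.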

Additional observations from a re-analysis of the deposited data

How the results depend on the processing

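Of the 19 calls with CU27, 12 held in every alternative run, those of HMGCS1, MVD, IDI1, SQLE, MSMO1, EBP, SC5D, DHCR7, INSIG1, INSIG2, SREBF2 and NPC1. Over all members and alternatives, 405 of 446 values with CU27 and 435 of 446 between lines kept their side of the threshold and were not turned. The members that fell with CU27 numbered 2 as reported. With the mean of all probe sets the number was 1, GGPS1, while TM7SF2 and LBR were lost, and it was 0 without _x_at and _s_at probe sets, 1 without the intensity trend and 0 with only Huh7.5.1 arrays. The filter on probe set names gave no value for TM7SF2, FDPS or HSD17B7, and the mean of all probe sets gave none for STARD4. With the mean of all probe sets GGPS1 was at -0.47 (limma adjusted p = 0.0402), and without _x_at and _s_at probe sets PMVK was at -0.034 between lines. The cause was not tested.

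With single arrays left out, 453 to 1580 genes rose and 440 to 1309 fell with CU27, of the members 12 to 17 rose and 0 to 2 fell, and between lines 3777 to 4787 genes were higher and 2049 to 2748 lower in Huh7.5.1. Between lines, against 4671 higher and 2612 lower on the deposited scale, median subtraction with the floor set anew gave 2648 higher and 4659 lower, quantile normalization 4011 lower, and no floor 7517 higher. Members between lines, with single arrays left out, gave 5 higher and 19 to 20 lower. The Huh7.5.1 arrays share replicate numbers 1 and 2. Deviations of same-numbered arrays had a correlation of 0.18 over genes, which with 2 pairs does not establish pairing, and with the number as a block 1612 genes rose and 1570 fell, 18 members rose and 2 fell, and 1 member call changed, that of LSS. The precision is limited by 2 arrays per group, and ABCG1, below the floor in every group, was not tested.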
